A study of Mus musculus with 8 samples.

Results

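The genes Lpl, Fabp5, Cd36, Plin2, Abca1 and Abcg1, which handle lipid in myeloid cells, were followed in the immune cells of beta-cell grafts. The 6 genes were taken by name from a table of 32285 genes measured in 22441 cells, and all 6 were found. Levels are in CPM, a gene's UMIs (unique molecular identifiers, each marking 1 captured RNA molecule) summed over the cells of 1 graft and 1 cell type and scaled to 1000000 UMIs of all genes in those cells. The 12 cell types and 29 clusters are those deposited with the cells.

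NIT-1, a beta-cell tumor line of the NOD mouse, was grafted under the skin of immunodeficient NOD.scid mice, with wild-type (WT) cells in 1 flank and Rnls mutant (Rnls mut) cells in the other. All hosts received splenocytes from recently diabetic NOD mice by vein, and CD45+ cells excluding propidium iodide were sorted from grafts taken 10 or 17 days after that transfer. There were 4 grafts in each of 4 groups, WT and Rnls mut at day 10 and at day 17. NOD.scid hosts lack T and B cells of their own but keep myeloid cells, so a graft macrophage may descend from either the host or the donor spleen. The ages of the animals are not given in the sources used here. Each graft carried 1 of 4 hashtag antibodies, and the 4 grafts of a group were pooled into 1 library. Library therefore cannot be told apart from genotype at either day, or from day within either genotype. Grafts of both genotypes at a day came from the same hosts, but the labels do not say that grafts with the same hashtag came from the same mouse, so the genotype tests did not pair them.

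Lipid reaches a macrophage by several routes that these genes serve. Lipoprotein lipase (Lpl) releases fatty acids from triglyceride-rich lipoproteins, CD36 takes up fatty acids and oxidized lipoproteins, and FABP5 binds fatty acids inside the cell. Perilipin 2 (Plin2) coats the lipid droplets in which surplus lipid is stored, and the transporters ABCA1 and ABCG1 pass cholesterol out to apolipoprotein A-I and to high-density lipoprotein. Transcription of both transporters is driven by the oxysterol receptors LXR, which bind DNA as dimers with RXR, while Cd36, Plin2, Lpl and Fabp5 are known targets of the PPAR receptors.

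In GENCODE M21 (GRCm38) Lpl lies at chr8:68880491-68907448 on the plus strand, Cd36 at chr5:17781690-17888801 on the minus strand and Fabp5 at chr3:10012548-10016607 on the plus strand. Plin2 lies at chr4:86648386-86670060 and Abca1 at chr4:53030787-53159895, both on the minus strand, and Abcg1 at chr17:31057675-31117988 on the plus strand. The 250 bases before the RefSeq start (GRCm38.p6) were available for 3 of the 6 genes, those whose levels differed with day in macrophages, and are printed because motifs of these receptors were searched in them. The motif was a repeat of AGGTCA in the same direction, with any 4 bases between the copies and up to 3 mismatches (the LXR arrangement) or any 1 base between them and up to 2 mismatches (the PPAR arrangement). Capitals mark the copies, found on the opposite strand (where a copy reads TGACCT), of the first kind in Abca1 and of the second kind in Plin2 and Cd36. The windows are chr4:53159896-53160145, chr4:86670060-86670309 and chr5:17835897-17836146, all on the minus strand and written 5′ to 3′ along the gene. The Cd36 window lies within the GENCODE span of that gene, so the RefSeq start used is not the outermost GENCODE start.
Abca1: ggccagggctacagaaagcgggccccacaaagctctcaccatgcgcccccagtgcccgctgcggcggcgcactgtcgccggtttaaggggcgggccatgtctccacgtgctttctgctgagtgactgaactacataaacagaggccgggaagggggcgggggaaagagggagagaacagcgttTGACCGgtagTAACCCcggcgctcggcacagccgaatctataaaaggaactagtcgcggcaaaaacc
Plin2: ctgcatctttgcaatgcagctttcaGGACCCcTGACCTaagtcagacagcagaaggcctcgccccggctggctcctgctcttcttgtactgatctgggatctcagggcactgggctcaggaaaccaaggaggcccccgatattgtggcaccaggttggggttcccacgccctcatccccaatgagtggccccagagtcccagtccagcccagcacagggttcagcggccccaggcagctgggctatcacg
Cd36: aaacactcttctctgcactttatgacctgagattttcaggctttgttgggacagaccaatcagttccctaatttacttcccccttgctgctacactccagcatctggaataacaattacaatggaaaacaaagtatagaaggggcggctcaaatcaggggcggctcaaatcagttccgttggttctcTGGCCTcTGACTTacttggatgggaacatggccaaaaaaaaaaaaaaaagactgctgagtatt
In each window 1 match was found. The Abca1 match ended 52 bases before the start, the Cd36 match 51 bases and the Plin2 match 213 bases. With both strands searched, 6081 of 32851 promoters of this length (18.5%) held a match to the first repeat and 1063 (3.24%) one to the second. A match is a description of the letters and was not tested as a binding site.

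The libraries held 6652 cells (Rnls mut, day 10), 5482 (Rnls mut, day 17), 7617 (WT, day 10) and 2690 (WT, day 17), with a median of 3083 to 5902 UMIs per cell. The WT day 17 library was the smallest and the deepest per cell, and its graft 2 held 107 macrophages. Grafts held 350 to 1967 cells, and 42 barcodes occurred in more than 1 library. The label macrophage covered 7179 cells in clusters 2, 4, 5, 10, 12 and 13, and a list of 9 macrophage markers summed to 7354 CPM in them, 1790 in monocytes, 238 in dendritic cells and 87.0 in CD4 T cells. The Rnls gene itself was not analysed here.

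Mean CPM of Lpl, Cd36, Fabp5, Plin2 and Abca1 was higher in macrophages and monocytes than in any lymphocyte type. Mean Abcg1 in NK cells exceeded that in macrophages. Means by cell type are over grafts of both days. Lpl was highest in macrophages, at 316 ± 208 CPM (SD, n = 16 grafts), and next in monocytes at 174 ± 128 (n = 15). It was higher in macrophages than in monocytes in 12 of 15 grafts, and dendritic cells held 45.1 ± 34.9 (n = 16). The grafts with more in monocytes were all of day 10, namely WT graft 1 and Rnls mut grafts 1 and 2. Monocyte Lpl was 157 to 293 in WT and 154 to 505 in Rnls mut at day 10. At day 17 it was 0 to 234 and 9.76 to 185. Macrophages therefore exceeded dendritic cells, in 16 of 16 grafts, more regularly than they exceeded monocytes.

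Cd36 had the other order, with 248.8 ± 232 CPM (SD, n = 15) in monocytes and 141 ± 110 (n = 16) in macrophages, and macrophages exceeded monocytes in 4 of 15 grafts. Dendritic cells held 90.2 ± 66.8 of Cd36. The spreads of these 3 cell types overlapped. At day 10 monocyte Cd36 was 70.5 to 130 in WT and 79.7 to 106 in Rnls mut. At day 17 it was 35.8 to 779 and 277 to 622, so the higher monocyte mean rested mainly on day 17.

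Fabp5 stood at 1333 ± 527 CPM in macrophages (SD, n = 16), 709.97 ± 675 in dendritic cells and 504 ± 185 in monocytes (n = 15). It was higher in macrophages than in monocytes in 15 of 15 grafts and higher than in dendritic cells in 13 of 16.

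Plin2, the droplet coat, was at 977 ± 759.7 CPM in granulocytes (SD, n = 12), 627 ± 207 in macrophages (n = 16) and 622 ± 227 in monocytes (n = 15). Macrophages exceeded monocytes in 8 of 15 grafts, so these neighbors could not be ordered. Dendritic cells, at 79.2 ± 12.6, lay below every macrophage and monocyte value. Granulocytes exceeded macrophages by CPM in 8 of 12 grafts, and held 188 and 189 CPM in WT and 319 to 700 in Rnls mut at day 17. Counted as UMIs per cell, Plin2 had another order, at 3.87 ± 1.60 in macrophages, 3.14 ± 2.03 in monocytes and 1.37 ± 1.09 in granulocytes. By that count monocytes exceeded granulocytes in 12 of 12 grafts.

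Of the transporters, Abca1 was highest in macrophages, with 414 ± 226 CPM (SD, n = 16) against 122 ± 76.7 in monocytes (n = 15), higher in macrophages in 15 of 15 grafts. Granulocytes held 88.1 ± 91.4 (n = 12) and NK cells, the next, 14.2 ± 6.57 (n = 16). Abcg1 was spread more evenly, at 218 ± 48.3 in monocytes, 196 ± 57.9 in NK cells, 153 ± 44.5 in macrophages and 122 ± 59.4 in granulocytes, and neighbors in that order overlapped. By CPM it was higher in NK cells than in macrophages in 13 of 16 grafts. In UMIs per cell it was higher in macrophages in 12 of 16.

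**Figure D1:**
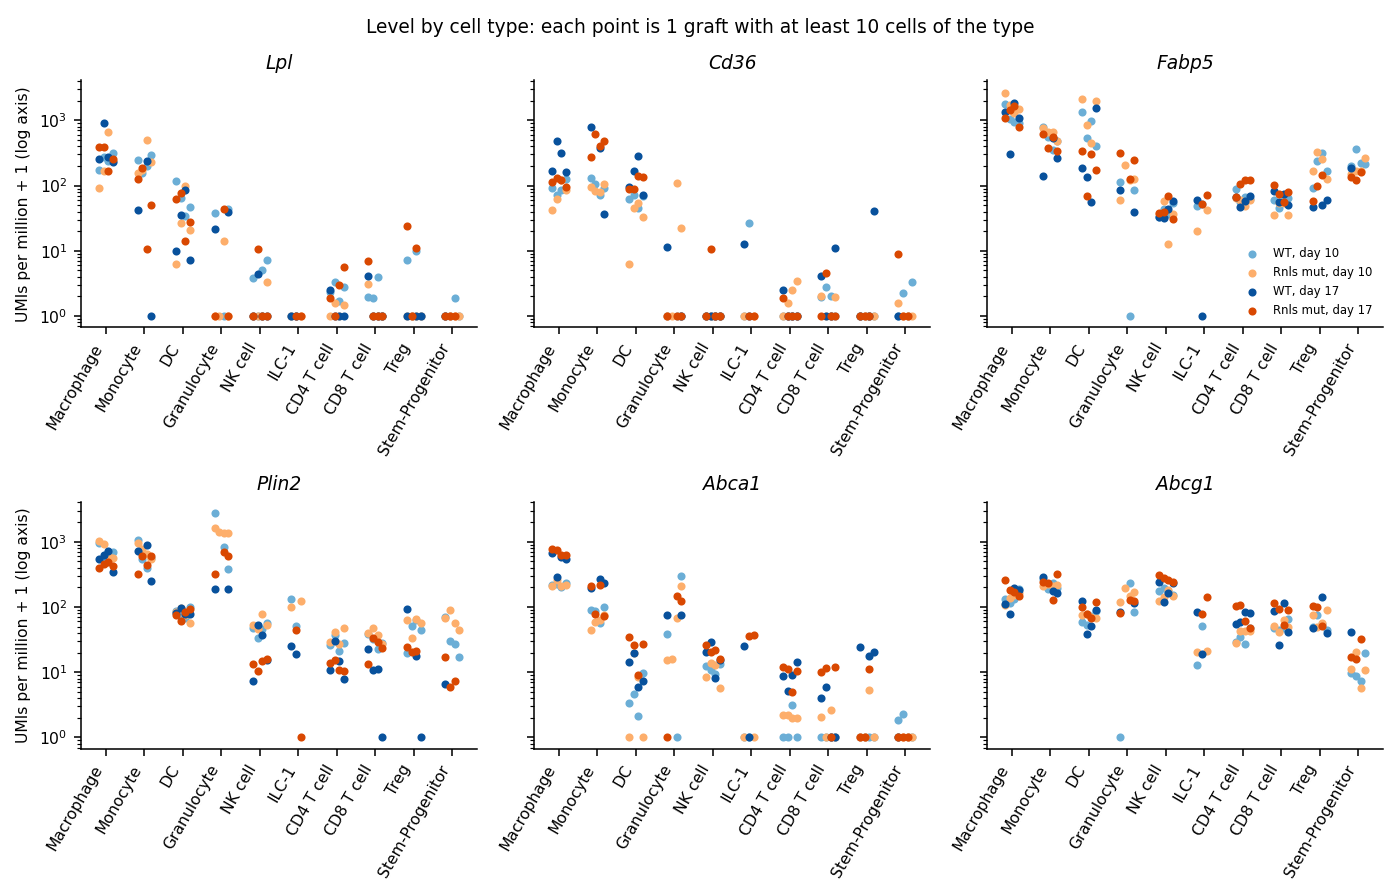
Level of each of the 6 genes by cell type, as CPM + 1 on a log axis, with WT in blue, Rnls mut in orange and day 17 in the darker shade. Points are grafts with at least 10 cells of that type. Lpl, Cd36 and Abca1 lie far lower in lymphocytes than in macrophages, whereas Abcg1 in NK cells overlaps that in macrophages.

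Shares of cells with a UMI, taken from the same counts and cell labels, are given for macrophages and CD4 T cells only. Without thinning, at least 1 UMI was found in 75.6% of macrophages for Abca1, 78.2% for Plin2, 71.5% for Fabp5, 51.2% for Abcg1, 40.0% for Lpl and 25.1% for Cd36. In CD4 T cells, where Lpl and Cd36 should be lacking, the shares were 0.308% for Lpl, 0.205% for Cd36 and 1.00% for Abca1. The median depth was 4719 UMIs in macrophages and 2823.5 in CD4 T cells. With every cell thinned to 1000 UMIs the macrophage shares were 38.6% for Abca1, 16.8% for Lpl and 9.39% for Cd36, and the CD4 T cell shares 0.356%, 0.107% and 0.0748%. Fabp5 and Abcg1 were detected in 5.75% and 5.28% of thinned CD4 T cells, so these genes were less restricted.

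Different genes of the 6 led in different macrophage clusters. Means here are over grafts of both days, and the clusters differ in how many of their grafts and cells are of day 10 or day 17. Cluster 10, led by Retnla, Fcrls and Ear2, had the highest mean Lpl, at 769 ± 471 CPM (SD, n = 9 grafts). Cluster 12, led by Ighg2b, Wfdc21 and Igkc, followed at 574 ± 561 (n = 9). Cluster 4 had a mean of 229 ± 196 (n = 13), but exceeded cluster 13 (221 ± 91.5) in 0 of the 8 grafts that held both. With the cells of all grafts pooled, Lpl in cluster 4 was the lowest of the 6 clusters, at 170 CPM. The same clusters 10 and 12 led for Cd36, with 258 ± 139 and 235 ± 111, ahead of cluster 2 at 133 ± 156 (n = 11). For Cd36 cluster 10 exceeded cluster 12 in 3 of the 7 grafts that held both, so they could not be ordered. The order of clusters within days is not given for Lpl and Cd36. The leading genes of cluster 12 include immunoglobulin transcripts.

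Fabp5 was highest in cluster 4, led by Inhba, Gm15056 and Procr, with 2843 ± 1759 CPM (SD, n = 13), then in cluster 12 with 1472 ± 818 (n = 9) and in cluster 2 with 1399 ± 1055 (n = 11). Cluster 5 held 610.04 ± 349 and clusters 13 and 10 less. Within days, with cells of a group pooled, Fabp5 was highest in cluster 4 at day 17 (3105 CPM in WT and 5536 in Rnls mut), but at day 10 cluster 2 exceeded it, with 2346 against 1693 in WT and 4088 against 2521 in Rnls mut, on 63 and 16 cells of cluster 2. Plin2 had its highest mean, 743 ± 216, in cluster 13, led by the heat-shock genes Hspb1 and Hsph1, and its lowest, 376 ± 141, in cluster 10. Within days cluster 13 led for Plin2 in WT at day 10 only, and at day 17 cluster 12 was highest in WT (870.1 CPM) and cluster 4 in Rnls mut (569.98).

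Abca1 was highest in cluster 2, led by Cxcl13, Apoe and Ednrb, at 718 ± 247 CPM (SD, n = 11), with means of 470.5 ± 258 (n = 16) in cluster 5, 416 ± 205 in cluster 12, 369 ± 168 in cluster 10, 293 ± 119 in cluster 4 and 234 ± 101 in cluster 13. With the cells of a group pooled, cluster 2 was highest in all 4 groups, at 413 (WT) and 526 (Rnls mut) at day 10 and 771 and 921 at day 17. Cluster 5 was next in all 4, but the order of the other clusters did not hold within days, since cluster 13 exceeded cluster 4 in all 4 groups (413 against 396 in WT at day 17) and cluster 10 was lowest in both groups of day 10 (134 and 52.9). Cluster 2 exceeded cluster 5 in 8 of the grafts that held both. Abcg1 ran from 214 ± 46.2 in cluster 5 to 125 ± 24.4 in cluster 4. These clusters were built on the same cells and their differences are given without a test.

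**Figure D2:**
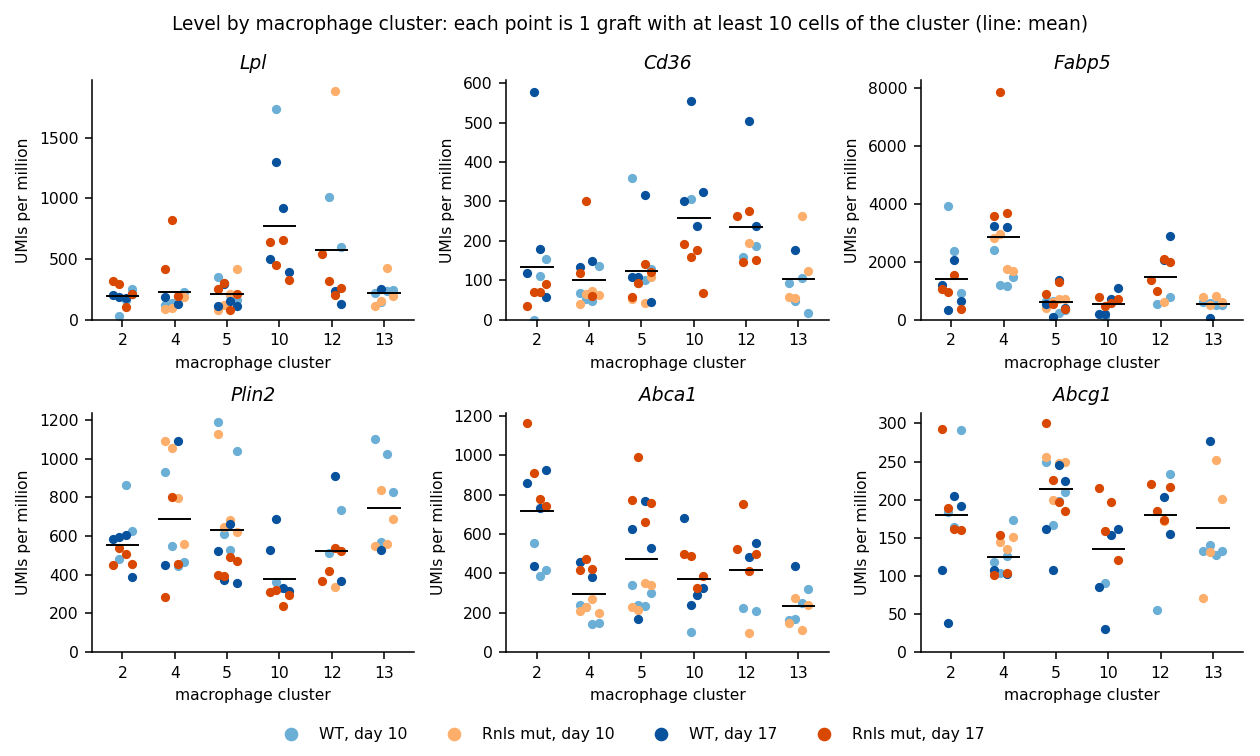
Level of each gene in the 6 macrophage clusters, in CPM, with points for grafts with at least 10 cells in that cluster and lines for means over both days. The highest means of Lpl and Cd36 are in clusters 10 and 12, of Fabp5 in cluster 4 and of Abca1 in cluster 2.

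Across all 29 clusters of the series, the gene most like each of the 6 by Pearson correlation of log2(CPM + 10), among 10265 genes, was Mmp19 for Lpl (r = 0.97), March1 for Cd36 (0.96), Anxa3 for Fabp5 (0.90), Prdx5 for Plin2 (0.96), Pde7b for Abca1 (0.95) and Diaph2 for Abcg1 (0.92). Among the 6 genes themselves r ran from 0.40 for Fabp5 with Abcg1 to 0.87 for Lpl with Cd36. These are descriptions over 29 clusters that share libraries and cells.

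Abca1 rose between day 10 and day 17 in the macrophages of both graft types. In WT grafts 1 to 4 it was 213, 225, 204 and 231 CPM at day 10 and 683, 284, 578 and 542 at day 17. In Rnls mut grafts it was 207, 256, 209 and 215 at day 10 and 779, 748, 628 and 621 at day 17. No day 17 graft fell within the day 10 range in either graft type, and WT day 17 graft 2 was the lowest of the later grafts.

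In edgeR's quasi-likelihood test over 9331 genes, Abca1 was 1.09 ± 0.18 higher (log2, SE) at day 17 in WT (adjusted p = 0.000526, Benjamini-Hochberg over all genes, as for every adjusted p here, with 0.05 as the threshold). In Rnls mut the difference was 1.51 ± 0.19 (adjusted p = 1.5e-05). Many genes changed with day, so this is read against its background: 25.1% of tested genes were called in WT and 42.0% in Rnls mut, with a median change over all genes of 0.03 and 0.02. Of the 6 genes, 2 were called in WT (Abca1 and Cd36, both higher) and 2 in Rnls mut (Abca1 higher, Plin2 lower). A count of 2 of 6 is close to these background shares.

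**Figure D3:**
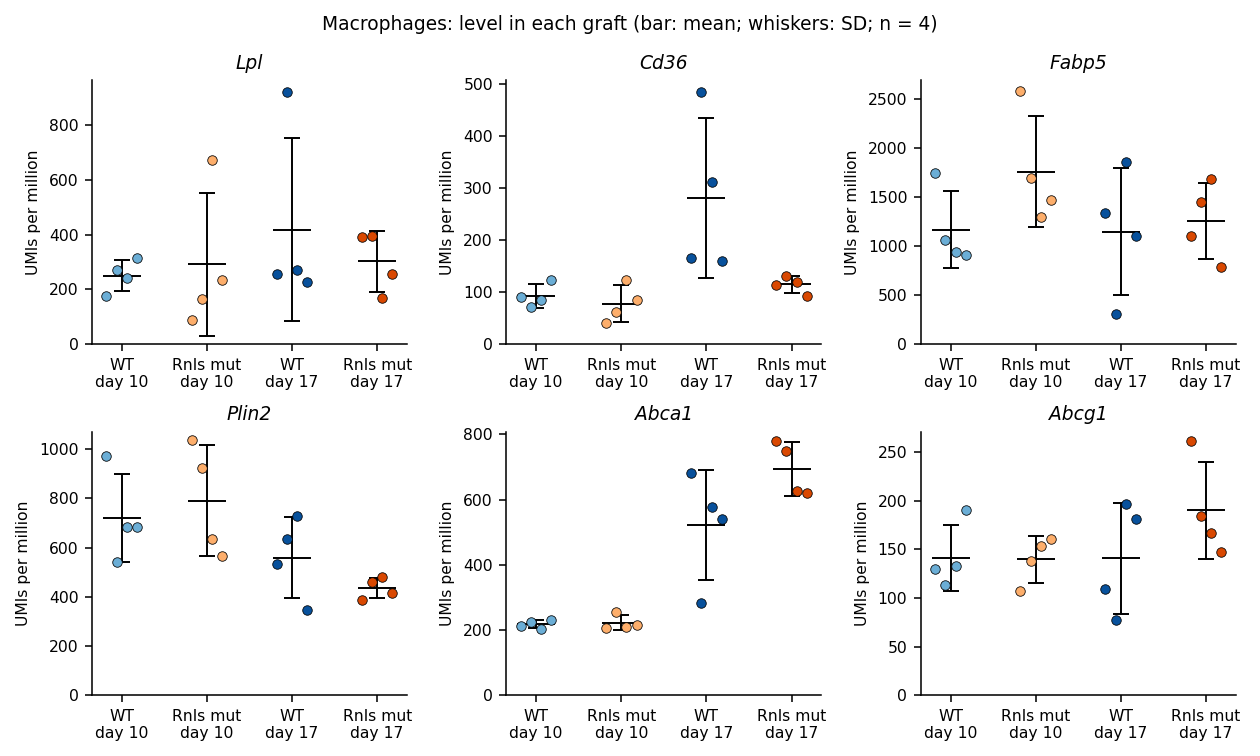
Level of the 6 genes in the macrophages of each graft, in CPM, by genotype and day, with points for grafts, bars for group means and whiskers for SD (n = 4). Abca1 lies higher in all 8 day 17 grafts than in all 8 day 10 grafts.

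Cd36, the fatty acid and oxidized lipoprotein receptor, rose in the macrophages of WT grafts. It was 89.6, 70.1, 83.5 and 123 CPM in WT grafts at day 10 and 164, 484, 311 and 159.9 at day 17, with no overlap. In Rnls mut grafts it was 41.0, 60.9, 122 and 85.3 at day 10 and 114, 131, 119 and 92.9 at day 17, and these overlapped. The change was 1.43 ± 0.33 (log2, SE) in WT (edgeR adjusted p = 0.00426) and 0.50 ± 0.33 in Rnls mut (adjusted p = 0.244). The difference between the changes was −0.93 (adjusted p = 0.550), so the 2 graft types were not shown to differ in it.

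Plin2 fell in the macrophages of Rnls mut grafts. It was 1037, 923, 635 and 566 CPM at day 10 and 389, 461, 480.3 and 418 at day 17, without overlap. In WT grafts it was 971, 543, 685 and 684.9 at day 10 and 534, 634, 728 and 345 at day 17, which overlapped. The change was −0.99 ± 0.22 (log2, SE) in Rnls mut (edgeR adjusted p = 0.00182) and −0.54 ± 0.22 in WT (adjusted p = 0.0813), and the WT change passed the threshold when graft 3 of day 17 or the 5% of cells with the most UMIs were left out.

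Lpl, Fabp5 and Abcg1 were not called between days in macrophages as a whole. Lpl was 175, 272, 240.4 and 314 CPM in WT at day 10 and 257, 919.7, 269 and 228 at day 17, and 89.3, 165, 674 and 236 then 392, 396, 166 and 256 in Rnls mut. The WT change of 0.55 ± 0.52 (log2, SE; edgeR adjusted p = 0.470) rested on graft 2 of day 17, without which it was −0.17. In Rnls mut the Lpl change was −0.04 ± 0.52 (adjusted p = 0.966).

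Fabp5 was 1749.6, 1066, 940.1 and 912 CPM in WT at day 10 and 1338, 302, 1858 and 1098 at day 17. In Rnls mut it was 2579.9, 1692, 1294 and 1475, then 1100.3, 1450.1, 1682 and 789.5. Both sets overlapped, with changes of −0.19 ± 0.38 in WT (log2, SE; edgeR adjusted p = 0.749) and −0.62 ± 0.38 in Rnls mut (adjusted p = 0.195).

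Abcg1, the second transporter, was 129, 113, 133 and 190.2 CPM in WT at day 10 and 109, 77.4, 197 and 181 at day 17. Rnls mut grafts gave 107, 138, 154 and 161, then 262, 184, 167 and 147.5. The changes were −0.14 ± 0.25 (log2, SE; edgeR adjusted p = 0.723) and 0.33 ± 0.25 (adjusted p = 0.299), against those of more than 1 log2 unit for Abca1.

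**Figure D4:**
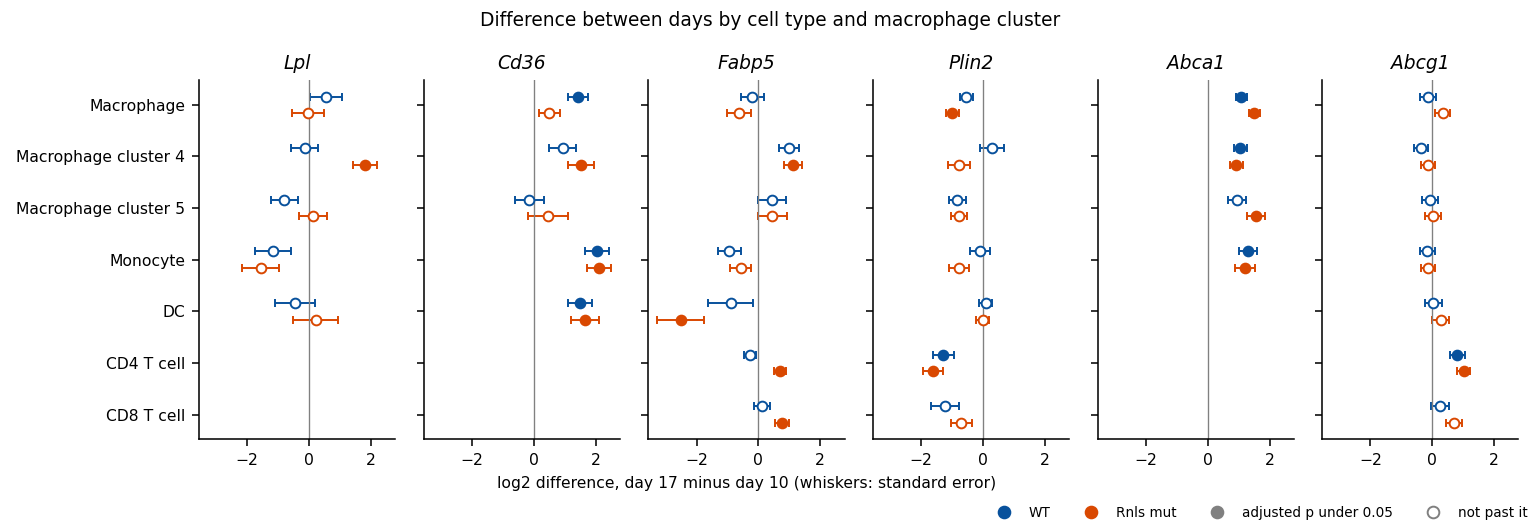
Day 17 minus day 10 differences of the 6 genes in log2 units from edgeR, with standard errors, by cell population (rows) and genotype (WT blue, Rnls mut orange), where filled points have an adjusted p under 0.05. Abca1 is above 0 in macrophages and monocytes of both graft types, and Cd36 in monocytes and dendritic cells of both.

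The make-up of the macrophages shifted over the same days. Cluster 4 went from 51.5% of macrophages to 7.31% in WT and from 67.9% to 4.89% in Rnls mut, and cluster 13 from 25.3% to 3.57% and from 17.2% to 0.781%. Cluster 2, highest in Abca1, went from 5.44% to 28.6% in WT and from 1.76% to 42.2% in Rnls mut. Cluster 5 went from 8.48% to 24.4% and from 7.83% to 28.0%, and cluster 10 from 2.54% to 26.5% and from 2.08% to 15.7%. Each of these 5 shifts had p = 0.0286 in a two-sided exact permutation test of 4 against 4 grafts, the smallest it can give, and 0.0343 adjusted over clusters. Cluster 12 gave p = 0.657 in WT and 0.114 in Rnls mut by the same exact test.

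Levels were therefore also taken at a fixed cluster mix, in which each graft's level in a cluster was weighted by that cluster's share of all macrophages of the series, over clusters with at least 5 cells in the graft. Weights were rescaled over the clusters a graft held, so the mix was not the same in every graft. They covered 90.9% to 100% of the mix in WT at day 10, 66.8% (graft 2) to 92.3% at day 17, 55.5%, 80.3%, 75.2% and 80.3% in Rnls mut grafts 1 to 4 at day 10 and 92.3% to 100% at day 17. Grafts 1 and 3 of Rnls mut at day 10 had under 5 cells of cluster 2, the cluster highest in Abca1. At this mix Abca1 was 232, 293, 245 and 280.2 CPM in WT at day 10 and 645, 309.9, 573 and 549 at day 17. In Rnls mut it was 210.1, 397, 229.7 and 279, then 744, 720.1, 556 and 624. The groups still did not overlap, and the log2 difference was 0.98 in WT and 1.24 in Rnls mut (exact permutation p = 0.0286 for each).

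Plin2 at the fixed mix was 765 ± 211 CPM at day 10 and 462 ± 62.4 at day 17 in Rnls mut (SD, n = 4; log2 difference −0.73, exact permutation p = 0.0286). The Cd36 difference in WT was 0.83 at the fixed mix and no longer passed (exact permutation p = 0.143). Lpl, Fabp5 and Abcg1 did not pass at the fixed mix in either graft type.

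**Figure D5:**
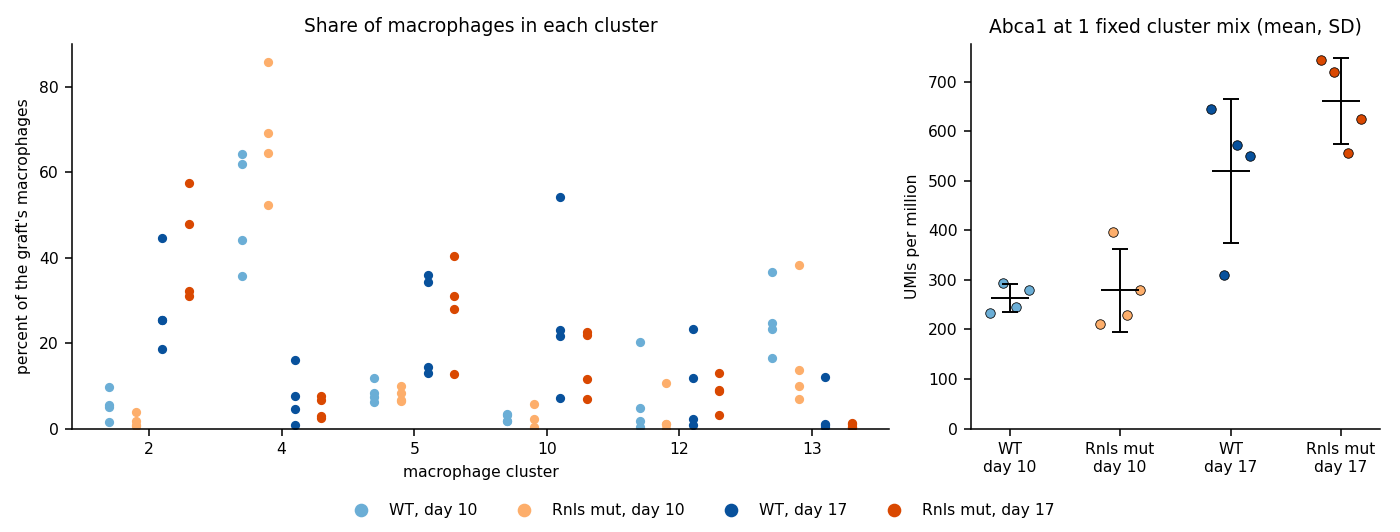
Left, percent of each graft's macrophages in each cluster, by genotype and day. Right, Abca1 at the fixed cluster mix in each graft, in CPM, with bars for means and whiskers for SD. Clusters 4 and 13 hold smaller and clusters 2, 5 and 10 larger shares at day 17, and no day 17 graft overlaps the day 10 grafts of its genotype in Abca1.

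Within single clusters, cluster 4 held 236, 228, 142 and 147 CPM of Abca1 in WT grafts at day 10, and 459 and 379 in the 2 WT grafts with at least 10 such cells at day 17. In Rnls mut it held 209, 231, 270.3 and 196, then 418, 471 and 421 in 3 grafts. The groups did not overlap, and the changes were 1.06 ± 0.21 (log2, SE; edgeR adjusted p = 0.00973, with 3.92% of 7620 genes called) and 0.93 ± 0.20 (adjusted p = 0.00654, with 8.95% called).

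Cluster 4 also held more Lpl at day 17 in Rnls mut, with 87.5, 98.7, 192 and 186 CPM at day 10 and 418, 819 and 189.8 at day 17. The third of the later grafts lay within the day 10 range. The change was 1.80 (log2; edgeR adjusted p = 0.00692) and −0.15 in WT (not called). Fabp5 and Cd36 were also called higher there in Rnls mut, by 1.11 (adjusted p = 0.0223) and 1.52 (adjusted p = 0.0312). The Fabp5 call was lost when grafts with at least 1 cell entered (1.23) and without the 5% of cells with the most UMIs (0.94).

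In cluster 5, which all 16 grafts held, Abca1 was 341, 239, 232 and 299 CPM in WT at day 10 and 627, 170.1, 767 and 527 at day 17. The Rnls mut grafts gave 231, 215, 352 and 342, then 774, 992, 661 and 759. The Rnls mut groups did not overlap, and in WT graft 2 of day 17 was the lowest of all 8. The change was 1.56 ± 0.30 in Rnls mut (log2, SE; edgeR adjusted p = 0.00175, with 11.3% of 2520 genes called) and 0.94 ± 0.29 in WT (adjusted p = 0.0717, with 3.45% called).

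In cluster 12, between 2 and 2 WT grafts in a fit added after seeing the data, the change of Fabp5 was 1.85 (log2; edgeR adjusted p = 0.0166) and that of Lpl −2.11 (adjusted p = 0.0162), with 0.508% of genes called. Both calls were lost when grafts with at least 1 cell entered. In cluster 2 the WT change of Abca1 was 0.64 (adjusted p = 0.221).

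Thinned to 1000 UMIs, 19.3% of WT and 18.7% of Rnls mut macrophages had an Abca1 UMI at day 10, and 43.3% and 50.1% at day 17. The summed level of the 9 macrophage markers overlapped between days but reached higher at day 17, with ranges over grafts of 4364 to 7706 CPM (WT, day 10), 6446 to 11136 (WT, day 17), 3229 to 8823 (Rnls mut, day 10) and 6927 to 12233 (Rnls mut, day 17). Other lists moved with day too. The 6 dendritic cell markers summed to 26.2 to 82.6 CPM in Rnls mut at day 10 and at most 18.4 at day 17 (WT, 33.8 to 72.3, then 6.26 to 82.0), the 3 platelet markers to 156 to 334, then 183 to 679.5 (WT, 213 to 326, then 237 to 807), and the 4 fibroblast markers reached at most 4.72, then 31.5 (WT, 15.4, then 38.0). Nearly all of the platelet sum was Pf4, with 14503 UMIs in macrophages of all groups against 26 of Ppbp and 21 of Itga2b. The part of these marker lists in the results was not tested. Markers of beta cells were at 0 in macrophages apart from 5 UMIs in Rnls mut at day 17, and those of adipocytes reached at most 3.49 CPM and of T cells 12.8.

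None of the 6 genes passed the threshold between genotypes. Over macrophages, other cell types and macrophage clusters, 159 tests of WT against Rnls mut, at either day or over both, gave 0 calls in edgeR, with a smallest adjusted p of 0.218, and 25 had an unadjusted p under 0.05. Over all genes 0.0630% of these tests were called at the adjusted threshold. The share over all genes at the unadjusted threshold is not given for the 159 tests, and many of them share cells. The count of 25 is therefore not read as a result about the 6 genes. Tests of whether the genotype difference changed between days gave 0 calls of 44, with a smallest adjusted p of 0.132 in edgeR, against 0.244% over all genes. In macrophages 0% of all genes were called at day 17 and 0% over both days, and 573 and 383 had an unadjusted p under 0.05. At day 10, and for the change between days, 3 of 9331 genes were called (0.0322%).

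The largest of the genotype differences in macrophages, among the 6 genes, was that of Cd36 at day 17, where the 4 WT grafts (159.9 to 484) all lay above the 4 Rnls mut grafts (92.9 to 131). It was −1.25 ± 0.32 (log2, SE, Rnls mut minus WT), with an edgeR adjusted p of 0.637, and was among the 25 under 0.05 before adjustment. DESeq2 gave −1.26 with adjusted p = 0.0492, and also called Cd36 lower in Rnls mut over all CD45+ cells, with differences of −0.99 at day 17 (adjusted p = 0.0151) and −0.76 over both days (adjusted p = 0.0112), where it called 27 and 29 of 12560 genes. Within clusters at day 17 Cd36 was −1.58, −1.19 and −0.78 in clusters 2, 10 and 12, at an edgeR p under 0.05 before adjustment only. It was 0.27 in cluster 4, −0.71 in cluster 5 and −0.09 in monocytes at that day. The clusters are parts of the same macrophages, which hold 6058 of the 8425 Cd36 UMIs of all CD45+ cells. These differences are therefore not separate support, and only 2 WT grafts of day 17 entered in cluster 12. Lpl in cluster 4 at day 17 was 1.66 ± 0.48 higher in Rnls mut (edgeR adjusted p = 0.458). Abca1 was 0.42 ± 0.18 higher in Rnls mut macrophages at day 17 (edgeR adjusted p = 0.790) and was also among these 25.

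Monocytes, the blood-borne precursors of many macrophages, showed the same direction for Cd36 and Abca1 over time. Cd36 was 130.4, 104, 70.5 and 89.9 CPM in WT at day 10 and 779, 374.5 and 35.8 in grafts 1, 3 and 4 at day 17. Graft 4 had only 10 monocytes and 2 Cd36 UMIs, and graft 2 had 7 monocytes and was left out. In Rnls mut Cd36 was 94.7, 81.0, 79.7 and 106, then 277, 622, 400.1 and 487, with no overlap. The change was 2.05 ± 0.39 in WT (log2, SE; edgeR adjusted p = 0.00724, with 3.84% of 8092 genes called) and 2.10 ± 0.40 in Rnls mut (adjusted p = 0.00658, with 3.19% called). Without WT day 17 graft 1 the WT change was 1.32 (adjusted p = 0.131), and with WT grafts fitted alone it was 2.05 (adjusted p = 0.103).

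Abca1 in monocytes was 88.2, 86.8, 56.4 and 98.9 CPM in WT at day 10 and 192, 269.8 and 232 at day 17, without overlap. In Rnls mut it was 42.9, 58.7, 62.5 and 73.3, then 205, 77.8, 215 and 73.0, where the last graft held 3 UMIs. The changes were 1.30 ± 0.28 (log2, SE; edgeR adjusted p = 0.0187) and 1.21 ± 0.32 (adjusted p = 0.0425). The Rnls mut call was lost without any 1 of 9 of the 15 grafts: all 4 Rnls mut grafts of day 10, Rnls mut day 17 grafts 1 and 3, WT day 10 grafts 1 and 2 and WT day 17 graft 4. The value then ran from 0.92 to 1.46 over the single omissions. It was also lost with at least 1 cell (1.20, edgeR adjusted p = 0.0740) or 20 cells (1.33, adjusted p = 0.0563) per graft and without the 5% of cells with the most UMIs (0.96, adjusted p = 0.0898). The WT call was lost with WT grafts fitted alone (1.34, edgeR adjusted p = 0.0645). The 5 endothelial markers summed to 48.3 to 156 CPM in WT monocytes at day 10 and 56.4 to 695 at day 17, and to 41.6 to 157, then 261 to 438, in Rnls mut. Of the 5, Cdh5, Kdr, Cldn5 and Emcn were at 0 at day 17 in both, so all of that level was Pecam1.

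In dendritic cells Cd36 was 60.4, 71.6, 44.0 and 67.7 CPM in WT at day 10 and 94.2, 164, 287 and 69.7 at day 17, the last of which lay within the day 10 range. In Rnls mut it was 5.20, 44.9, 52.8 and 32.0, then 88.3, 88.5, 139.9 and 133, with no overlap. The changes were 1.49 ± 0.39 (log2, SE; edgeR adjusted p = 0.0187, with 10.2% of 5700 genes called) and 1.65 ± 0.46 (adjusted p = 0.0219, with 14.6% called). The WT call was lost without graft 3 of day 10 or graft 3 of day 17, and the Rnls mut call without graft 4 of day 10 or graft 3 of day 17.

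Fabp5 in dendritic cells was 2092, 849, 449.6 and 1955 CPM in Rnls mut at day 10 and 334, 67.4, 309 and 172 at day 17, without overlap. In WT it was 1330.3, 537, 961 and 401, then 184, 136, 54.7 and 1527, where graft 4 of day 17 was the highest of the 8. The changes were −2.51 ± 0.76 in Rnls mut (log2, SE; edgeR adjusted p = 0.0340) and −0.89 in WT (adjusted p = 0.466). The Rnls mut call was lost without any 1 of 6 grafts, Rnls mut day 10 grafts 1 and 4 and each of the 4 of day 17. Abca1 reached at most 33.4 CPM in dendritic cells and was not tested.

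Plin2, Abcg1 and Fabp5 could also be tested in CD4 T cells. Plin2 there was 27.1 ± 6.77 CPM in WT at day 10 (SD, n = 4) and 14.9 ± 9.78 at day 17, and 34.9 ± 9.56 then 11.7 ± 2.44 in Rnls mut. It fell in both, with changes of −1.28 (log2; edgeR adjusted p = 0.00826) and −1.62 (adjusted p = 8.8e-04). Abcg1 rose, from 33.6 ± 9.22 to 68.8 ± 14.7 in WT (0.81, adjusted p = 0.0199) and from 38.3 ± 7.46 to 78.6 ± 29.8 in Rnls mut (1.02, adjusted p = 0.00198). In all, 20.7% and 22.5% of 7858 genes were called.

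Fabp5 rose in CD4 T cells of Rnls mut grafts, from 57.0 ± 6.94 to 104 ± 26.1 CPM (SD, n = 4; log2 change 0.70, edgeR adjusted p = 0.00895), and was −0.28 in WT (adjusted p = 0.358). In CD8 T cells it was 0.77 higher in Rnls mut (edgeR adjusted p = 0.0316, with 10.5% called), and in regulatory T cells −1.95 in WT (adjusted p = 0.0163, with 8.54% called). The first call was lost with no filter on low counts (0.66, adjusted p = 0.0803) and the second without the 5% of cells with the most UMIs (−1.57, adjusted p = 0.0554). Abcg1 rose by 0.86 between days in NK cells of Rnls mut grafts (edgeR adjusted p = 0.0386, with 2.67% called). This rise was not called with no filter (0.74, edgeR adjusted p = 0.16) or without the 5% of cells (0.82, adjusted p = 0.0640). Plin2 fell in granulocytes of WT grafts (−2.74, edgeR adjusted p = 0.0127, with 2.70% called), where only 2 grafts of day 17 entered and the median depth was 1319 UMIs per cell. That call was lost when grafts with at least 1 cell entered (−1.38, edgeR adjusted p = 0.318) and with WT grafts fitted alone (−2.73, adjusted p = 0.123). Plin2 also fell in the cells labeled stem and progenitor of Rnls mut grafts (−2.99, adjusted p = 0.0364, with 6.28% called), in a fit added after seeing the data because no WT graft of day 17 held enough of these cells. The label was taken as given, though 4 T cell markers summed to 1977 CPM in these cells, against 3785 in CD4 T cells. Their median depth was 9652 UMIs.

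In the sums of whole grafts, more macrophages cannot be told apart from more RNA per macrophage. There Abca1 was 2.17 higher at day 17 in WT (log2; edgeR adjusted p = 1.7e-04) and 3.00 higher in Rnls mut (adjusted p = 9.4e-06). Cd36 was 2.02 (adjusted p = 3.0e-05) and 1.54 (adjusted p = 1.4e-04) higher. Lpl and Abcg1 were also called higher at day 17 in Rnls mut, by 1.18 (edgeR adjusted p = 0.0287) and 0.81 (adjusted p = 0.0142). The background was 37.9% of 12560 genes in WT and 46.7% in Rnls mut. The Lpl call was lost without any 1 of 5 grafts, and the Abcg1 call without Rnls mut day 17 graft 1.

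Other genes of the same pathways were read in macrophages from 8 lists of 100 genes in all. Among 18 tested genes of LXR signaling and cholesterol efflux, 3 were higher and 2 lower at day 17 in WT, and 7 were higher and 4 lower in Rnls mut, with medians of 0.26 and 0.23 (log2). Over all 9331 genes 1124 were higher and 1220 lower in WT, and 1928 and 1995 in Rnls mut. Pltp, which transfers phospholipid between lipoproteins, rose by 2.08 ± 0.39 (SE) in Rnls mut (edgeR adjusted p = 0.000434) and was 0.91 ± 0.37 in WT (adjusted p = 0.0818). Rxra, the partner of LXR, rose in both, by 0.81 ± 0.21 and 1.14 ± 0.21. Nr1h3, which encodes LXR alpha, fell in both (log2 changes of −0.87 ± 0.20, edgeR adjusted p = 0.00505, and −1.37 ± 0.20, adjusted p = 6.4e-05), opposite in sign to Abca1.

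Lipid droplet genes had 1 higher and 2 lower of 8 tested in WT and 0 higher and 5 lower in Rnls mut, with medians of −0.43 and −0.52 (log2). Dgat2, which makes triglyceride, fell in both (−1.35 and −1.57). Hilpda, a lipase inhibitor on droplets, fell in Rnls mut (−1.82) and was −0.39 in WT, and the lipase gene Pnpla2 fell in Rnls mut (−0.56). Cholesterol synthesis genes had 0 higher and 1 lower of 15 tested in WT, and 0 higher and 8 lower in Rnls mut, with medians of −0.31 and −0.70. Idi1 fell in both (−0.93 and −1.56), and Hmgcs1, an enzyme early in the pathway, fell in Rnls mut (−0.82).

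Fatty acid oxidation genes had 0 higher and 5 lower of 12 tested in WT and 0 higher and 6 lower in Rnls mut (medians −0.13 and −0.34, log2), among them the carnitine carrier Slc25a20 (−0.77 and −1.29) and the dehydrogenase Acadvl (−0.43 and −0.76). Scavenger and lipoprotein receptors had 0 higher and 2 lower of 8 in WT and 2 higher and 2 lower in Rnls mut (medians −0.37 and −0.24). Olr1, an oxidized LDL receptor, fell in both (−1.97 and −2.43), as did Cxcl16 (−1.02 and −1.26), while Lrp1, an endocytic receptor, rose in Rnls mut (0.68).

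Fatty acid uptake and binding genes had 2 higher and 1 lower of 8 in WT and 1 higher and 2 lower in Rnls mut (medians 0.09 and −0.06, log2). The transporter Slc27a1 rose (0.90 and 1.36) and Acsl1, which activates fatty acids, fell (−1.05 and −1.93). Fabp4 was 3.11 higher at day 17 in WT (edgeR adjusted p = 0.0181), with WT day 17 grafts from 21.1 to 183 CPM. In Rnls mut its change was −0.10 (not called). Of 3 tested PPAR genes, Ppard rose in both (0.75 and 0.58). The lipid-associated macrophage list had 3 higher and 0 lower of 11 in WT and 4 higher and 2 lower in Rnls mut (medians 0.35 and 0.54). Lipa, the lysosomal acid lipase, rose between days in both (0.79 and 0.80). In Rnls mut, Ctsb rose between days (0.97) and Cd9 fell (−1.70). The medians over all tested genes were 0.03 in WT and 0.02 in Rnls mut. No gene of the 8 lists was called by edgeR between genotypes in macrophages at either day or over both.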

How the data were processed

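CD45+ cells sorted from the grafts were sequenced with 10x Genomics 3′ chemistry. Per the labels, the authors made the UMI counts with Cell Ranger (version not given in the sources used here) on mm10, assigned cells to grafts by hashtag, and deposited whole counts per gene and cell with the sample, cluster and cell type of each cell. The quality filters were those of the authors, the fewest UMIs in a kept cell being 1001. Hashtag libraries were not used here.

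Counts were summed per graft and cell type or macrophage cluster where a graft had at least 10 cells, and tested with edgeR 4.0.16 (TMM, filterByExpr, quasi-likelihood) with all 4 groups in 1 fit, on R 4.3.3. Adjusted p-values are Benjamini-Hochberg over all genes tested, with a threshold of 0.05. DESeq2 1.42.0 was an alternative. Grafts are the replicates, and p-values measure the spread between grafts. Cluster shares and levels at a fixed mix were tested with two-sided exact permutation tests. Grafts held 1742746 to 9729233 UMIs. Scripts were tested on simulated data.

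The 6 genes and the 8 related lists (100 genes) were chosen with earlier results of these data known. Named were the 6 genes, the genes most like each over clusters, the leading genes of clusters, and from each list up to 3 genes with the smallest adjusted p past the threshold, of which 1 is not reported here. Doublets were not called, and 5% of cells with the most UMIs were left out as an alternative. The other alternatives were library size scaling, no filter, other cell minimums, a replicate block, separate fits, single grafts left out and, in macrophages, removal of cells with a T cell receptor complex UMI.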

Additional observations from a re-analysis of the deposited data

Results flagged for a closer look

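In 5 of 90 groups of 4 grafts the highest graft lay apart from the others by Dixon's test at the 95% level, where chance gives about 1 in 20. In macrophages these were Abca1 in Rnls mut at day 10, at 256 CPM in graft 2 with the next at 215, and Lpl in WT at day 17, at 919.7 in graft 2 with the next at 269. Over all CD45+ cells Fabp5 stood at 800.3 in WT day 10 graft 1, with the next at 439, and Plin2 at 606 in WT day 17 graft 3, with the next at 301. In dendritic cells Fabp5 stood at 1527 in WT day 17 graft 4, with the next at 184.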

How the results depend on the processing

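In macrophages, Abca1 was higher and past the threshold at day 17 under all 25 alternatives in each graft type (at the fixed mix by an unadjusted exact permutation p of 0.0286, under the others by adjusted p), with a log2 change of 0.96 to 1.28 in WT and 1.24 to 1.64 in Rnls mut. The fall of Plin2 in Rnls mut likewise passed under all 25 (−1.13 to −0.73). The rise of Cd36 in WT was called under 24 of 25 and not at the fixed cluster mix (0.83, exact permutation p = 0.143). The Cd36 genotype difference at day 17 ran from −1.44 to −0.86 over 26 alternatives and was called under DESeq2 only.

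With DESeq2, 1 of the 6 genes (Cd36) was called between genotypes over all CD45+ cells at day 17 and over both days (27 and 29 genes in all), and 1 in macrophages at day 17. Over all genes DESeq2 called 16, 6 and 43 in macrophages at day 10, at day 17 and for the change between days, against 3, 0 and 3 in edgeR. With no filter on low counts the last and first of these were 9 and 12, and the 6 genes gave 1 call in dendritic cells at day 17, over both days and for the change between days (0 otherwise), 2 in WT between days (1 otherwise), and in monocytes 4 in WT and 5 in Rnls mut (2 each otherwise). Over all genes that setting called 40, 34, 39 and 856 of 16810 in these dendritic cell tests and 639 and 698 of 16920 in monocytes. No filter also gave 1 call for the change between days in the other cell types, and in macrophage clusters 1 at day 10, 1 at day 17, 2 over both days, 4 in WT between days and 2 for the change (in cluster 4, for example, 108, 102, 93, 594 and 109 of 16862 genes). With at least 20 cells per graft there were 2 calls in WT dendritic cells, 1 in Rnls mut monocytes, 2 in WT other cell types and 2 in WT clusters. With at least 1 cell, or without the 5% of cells with the most UMIs, 1 was left in Rnls mut monocytes, and the latter gave 5 genes for the change between days in macrophages. With each day or genotype fitted alone, 1 gene was called in macrophages at day 10, 0 of the 6 in WT monocytes and 2 in WT clusters. Shares over all genes are not given beside the counts under these cell minimums, cell removal and separate fits. The same holds for the no filter call in other cell types. These counts are therefore not read as results about the 6 genes.

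Some small differences changed sign. In macrophages the genotype difference of Abca1 at day 10 was 0.010 with DESeq2, 0.027 with library size scaling, 0.012 fitted alone, 0.058 without the 5% of cells and 0.087 at the fixed mix. That of Lpl was −0.13 without the 5% of cells and −0.048 at the fixed mix, and 0.29 at day 17 at the fixed mix. Between days, library size scaling gave 0.031 for Abcg1 in WT and 0.091 for Lpl in Rnls mut, and Lpl was 0.33 in Rnls mut without the 5% of cells. The fixed mix gave Fabp5 0.039 and Lpl −0.22 in WT, and Fabp5 0.35 and Lpl 0.11 in Rnls mut. With equal cluster weights in place of the series' shares, Lpl was 0.075 at day 10, −0.014 at day 17 and 0.20 between days in WT, and Abcg1 −0.046 in Rnls mut. None of these was past the threshold, and the cause was not tested.

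Hashtag numbers were shared between genotypes within a day, but deviations of same-numbered grafts correlated at −0.47 to 0.56 over 3163 genes, and 2 of 8 grafts correlated best with their own number, so the numbers were not shown to mark the mouse. Both flanks of a host carried grafts, and the unpaired genotype tests do not use this. With hashtag as a replicate block the macrophage genes called were 0 at day 10 and 1 for the change between days, macrophage clusters gave 1 call for the change, and the Lpl difference at day 10 was −0.20, with no other change of call or sign. The share over all genes is not given beside that cluster call, which is not read as a result.

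Counted per cell instead of as CPM, the median log2 ratio of macrophages over CD4 T cells was 8.85 for Lpl, 8.81 for Cd36, 4.98 for Fabp5, 5.73 for Plin2, 7.49 for Abca1 and 2.41 for Abcg1, against 6.99, 6.45, 4.15, 4.97, 6.44 and 1.66. That of Plin2 over dendritic cells was 2.51 against 2.96. Thinned to 2000 UMIs, macrophages had a UMI in 26.1% for Lpl, 15.3% for Cd36, 58.777% for Fabp5, 58.782% for Plin2, 54.1% for Abca1 and 28.3% for Abcg1.

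Leaving out single grafts, the genes called in macrophages ran from 1 to 4 at day 10, 0 to 1 over both days, 1744 to 2375 between days in WT, 3194 to 4123 in Rnls mut and 1 to 9 for the change. Of the 6 genes, 2 to 4 were called over all CD45+ cells in Rnls mut, 0 to 2 in WT and 0 to 3 in Rnls mut dendritic cells, 1 to 4 in WT and 1 to 3 in Rnls mut monocytes. All genes called then ran from 5023 to 6525, 324 to 669, 456 to 984, 36 to 1299 and 83 to 602 in these 5 tests. In share, 0 to 5 clusters passed between days in either graft type, where a test of 3 against 4 grafts has few splits and the 5 clusters' shares did not overlap between days. Genotype differences at day 10 in macrophages ran from −0.085 to 0.027 for Abca1, −0.053 to 0.28 for Plin2, −0.67 to 0.47 for Lpl and −0.14 to 0.12 for Abcg1, and at day 17 from −0.17 to 0.46 for Fabp5 and −0.62 to 0.29 for Lpl. Lpl ran from −0.55 to 0.22 over both days and −0.89 to 0.24 for the change. Between days in WT, Fabp5 ran from −0.51 to 0.12, Lpl from −0.17 to 0.74 and Abcg1 from −0.34 to 0.038, and Lpl from −0.35 to 0.79 in Rnls mut. Omissions were run for macrophages, monocytes, dendritic cells and all CD45+ cells, not for other types or clusters. With 4 grafts a group and 1 library a group, library differences cannot be told apart from day or genotype.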
